A study of Mus musculus with 3 samples.

Results

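The dendritic cell subset genes described here are 8 of the 54838 genes listed for thymus sections: *Ccl17*, *Ccl22* and *Fscn1* of activated dendritic cells, *Xcr1*, *Clec9a* and *Batf3* of the type 1 conventional subset (cDC1), *Siglech* of plasmacytoid dendritic cells, and *Itgax*, which most dendritic cells carry. They were chosen by symbol, and all 8 were detected in every section. UMIs (unique molecular identifiers, each standing for 1 captured RNA molecule) were counted on barcoded spots of 3 thymus sections from female C57BL/6 mice, 1 section a mouse. The 2 sections from *Trp53*-/- (KO) mice were labelled KO1134, at 17 weeks, and KO1308, at 21 weeks, and the section from the *Trp53*+/+ (WT) mouse was labelled WT1101, at 17 weeks. The KO mice lack *Trp53* in every cell rather than in a chosen cell type, and all mice were anaesthetised and perfused with cold PBS. The study's own list of samples pairs mouse numbers and depths differently, so which KO mouse and age each KO section stands for is uncertain.

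Dendritic cells present antigen to developing T cells. In the thymus, cDC1 read dying cells and take up antigen from medullary epithelial cells, plasmacytoid dendritic cells bring antigen from the blood, and activated dendritic cells gather in the medulla, where they help to delete or divert self-reactive thymocytes. XCR1 is the receptor for the chemokine XCL1, CLEC9A binds actin exposed on dead cells, and BATF3 is a transcription factor that cDC1 need. CCL17 and CCL22 are chemokines that share the receptor CCR4, and fascin, the product of *Fscn1*, bundles actin in the dendrites of mature cells. Siglec-H is a surface lectin of plasmacytoid dendritic cells in the mouse, and *Itgax* codes for CD11c, an integrin chain that some macrophages also carry.

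*Ccl17* and *Ccl22* lie on the same strand of chromosome 8. Between the end of *Ccl22* (GRCm38, chr8:94745590-94751699) and the start of *Ccl17* (chr8:94810453-94812036) are 58754 bases. Both are shown because their levels parted in the medulla. *Xcr1* (chr9:123852315-123862029, minus strand) and *Clec9a* (chr6:129408862-129424763, plus strand) are shown as the cDC1 genes with the largest cortical excess in KO1134, and *Itgax* (chr7:128129547-128150657, plus strand) as the member with the largest ratio to WT. The sequences are the bases before the annotated start (RefSeq, GRCm38.p6), 5′ to 3′ on the strand of the gene and ended where the annotated gene body starts, and run over chr8:94810203-94810452, chr8:94745434-94745589, chr9:123862030-123862279, chr6:129408612-129408861 and chr7:128129300-128129546. Capitals mark matches to the motifs searched.
Ccl17: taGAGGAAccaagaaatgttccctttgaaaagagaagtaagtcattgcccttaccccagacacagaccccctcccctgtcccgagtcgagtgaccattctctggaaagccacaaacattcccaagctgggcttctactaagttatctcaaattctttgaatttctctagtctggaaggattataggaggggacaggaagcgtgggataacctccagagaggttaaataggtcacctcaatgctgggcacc
Ccl22: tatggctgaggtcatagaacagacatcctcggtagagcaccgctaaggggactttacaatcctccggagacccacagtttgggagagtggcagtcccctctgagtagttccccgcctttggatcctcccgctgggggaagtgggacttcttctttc
Xcr1: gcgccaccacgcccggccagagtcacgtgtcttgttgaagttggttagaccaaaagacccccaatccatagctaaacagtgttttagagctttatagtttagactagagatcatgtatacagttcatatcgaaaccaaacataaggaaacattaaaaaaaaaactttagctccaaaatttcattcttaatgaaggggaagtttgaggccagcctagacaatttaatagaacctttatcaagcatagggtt
Clec9a: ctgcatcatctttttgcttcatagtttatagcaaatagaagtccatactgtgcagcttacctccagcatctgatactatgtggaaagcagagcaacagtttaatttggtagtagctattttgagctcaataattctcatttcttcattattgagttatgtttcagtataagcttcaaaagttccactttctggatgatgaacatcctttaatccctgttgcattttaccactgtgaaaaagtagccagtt
Itgax: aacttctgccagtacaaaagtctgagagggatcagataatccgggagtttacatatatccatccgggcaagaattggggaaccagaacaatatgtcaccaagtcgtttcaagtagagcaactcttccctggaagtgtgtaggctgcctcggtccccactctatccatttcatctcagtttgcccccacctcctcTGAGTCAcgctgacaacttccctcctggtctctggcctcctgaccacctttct
Over the 250 bases before the RefSeq start of all 8 members, both strands were searched for TGANTCA (AP-1, bound by BATF proteins), GAGGAA (PU.1 core), and the consensus of the interferon response element, the ETS-IRF element and kappa B. TGANTCA was found in *Itgax* alone, 56 bases before the RefSeq start, and 6.75% of 32851 promoters of the same length hold it. GAGGAA was found in *Ccl17* and *Batf3* and in 23.3% of all promoters. The other 3 motifs, in the order above, were held by 2.98%, 2.30% and 7.25% of promoters and matched in none of the 8 windows. The interferon response and ETS-IRF elements can overlap.

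The unit of measurement was a square bin of 27 µm, in which the spots were added up, a small region that can hold several cells. The sections held 21089885 to 41581477 UMIs, with 12009 tissue bins in KO1134, 16140 in KO1308 and 27104 in WT, and a mean of 2591, 1090 and 1497 UMIs per bin. *Trp53* was at 17.0 CPM (counts per 1000000 UMIs) in KO1134, 25.1 in KO1308 and 79.9 in WT, so the labels hold and some reads of the locus remain in both KO sections. Medulla bins lay where 7 genes of medullary epithelium, such as *Krt5* and *Aire*, were relatively high, cortex bins where 6 cortical genes, such as *Psmb11* and *Rag1*, were, and B-cell zone bins where *Cd79a*, *Cd79b* and *Ms4a1* outnumbered 6 thymus genes, and no member was in these lists. The cortex had 5767, 7956 and 17259 bins and the medulla 3123, 6728 and 9182 in KO1134, KO1308 and WT. The B-cell zone had 1865 bins in KO1134, 439 in KO1308 and 0 in WT, so it has no WT counterpart. Of the barcode sequences with UMIs, 5486 to 13503 were shared by a pair of sections with 333982 to 833765 spots each.

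With 1 WT section the spread between mice comes from the 2 KO sections alone, and the intervals given are exact 95% intervals of the counting error. A quasi-likelihood test of the summed UMIs of KO against WT (edgeR, Benjamini-Hochberg adjustment over all genes), chosen after seeing the data, called 0.0145% of 13831 genes in the cortex and 0.203% of 11840 in the medulla. It called 0 of the 7 members tested in each, and DESeq2 called 0 as well. In simulated counts with the spread of these sections, edgeR recovered 0% of 2-fold changes in the cortex and 2% in the medulla. It recovered 50% of 8-fold changes in the cortex and 98% in the medulla. The lack of calls therefore cannot exclude 2-fold differences in either compartment, nor differences up to 8-fold in the cortex. At an unadjusted p under 0.05, edgeR had 1 member in each compartment, *Itgax*, beside 888 of 13831 genes in the cortex and 1525 of 11840 in the medulla. DESeq2 had 2 members in the cortex and 1 in the medulla, beside 987 and 1036 of the same genes. The differences between genotypes given for the members are thus descriptions of these 3 sections. Genotype also goes with processing of the sections, since the study permeabilised KO and WT sections for different times, and the effect of this cannot be told apart from that of *Trp53*. In regions of mixed cells, more cells of a type and more RNA per cell cannot be told apart either.

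**Figure D1:**
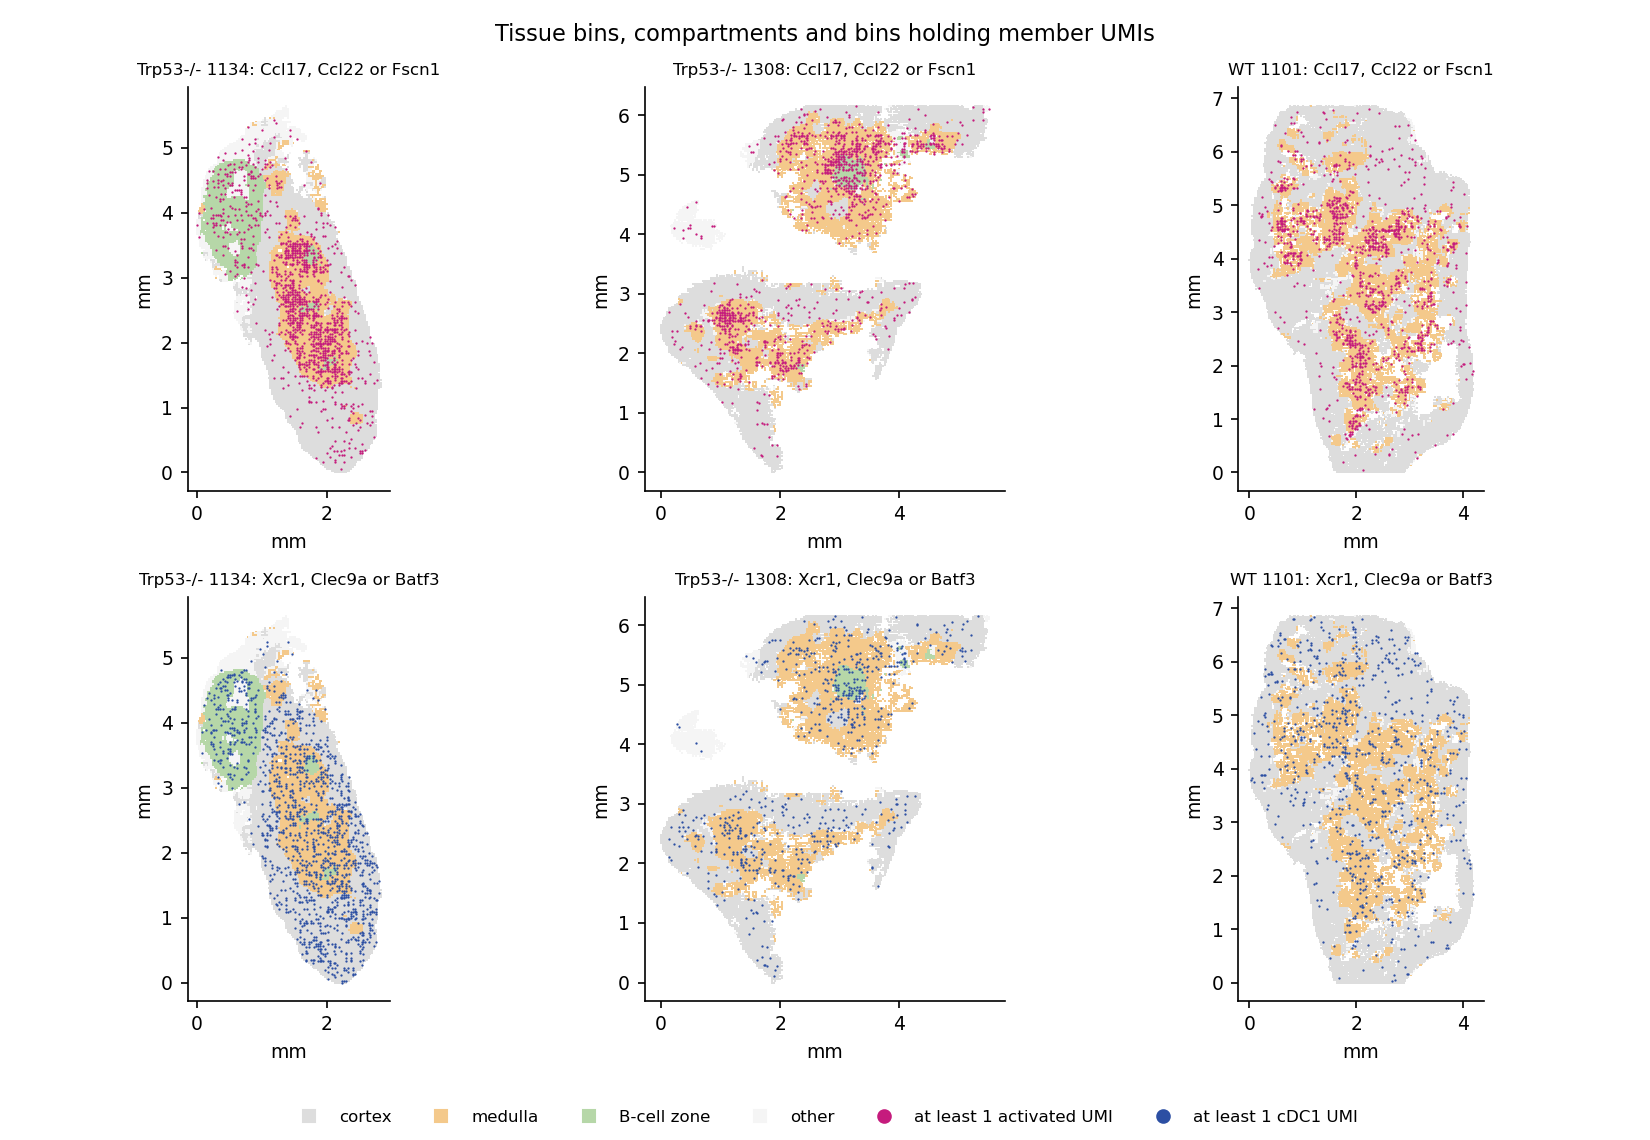
Each panel maps the tissue bins of 1 section, with both axes in mm, coloured by compartment, and points mark bins with at least 1 UMI of an activated gene (upper row) or of a cDC1 gene (lower row). Activated genes crowd the medulla in all 3 sections. There, 68.1%, 71.1% and 81.3% of their UMIs in tissue fell in KO1134, KO1308 and WT. The cDC1 bins also spread over the cortex, which held 48.6%, 32.2% and 45.3% of cDC1 UMIs in KO1134, KO1308 and WT. It held 49.4%, 52.3% and 73.6% of all UMIs. A deeper bin is more often marked at the same level, and cortex bins were deepest in KO1134.

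The activated genes were medullary in every section. Of their summed UMIs, 68.1% in KO1134, 71.1% in KO1308 and 81.3% in WT lay in the medulla, which held 25.1%, 34.7% and 24.3% of all UMIs. The medulla exceeded the cortex 9.15-fold in KO1134 (interval 8.01 to 10.5), 7.34-fold in KO1308 (6.35 to 8.502) and 14.2-fold in WT (12.5 to 16.2). The order across sections was the same for *Fscn1*, *Ccl22* and *Ccl17*, with WT highest and KO1308 lowest. Over the 3 sections the mean log2 ratio of medulla to cortex was 3.30 ± 0.49 (SD, n = 3), and an exact two-sided sign-flip test gave p = 0.25, the smallest that 3 sections allow.

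The cDC1 genes leaned to the medulla less, and least in KO1134. Their sum was 1.39-fold higher in the medulla than in the cortex of KO1134 (1.26 to 1.54), 2.42-fold in KO1308 (2.06 to 2.85) and 3.51-fold in WT (3.08 to 3.998). Within the subset, *Batf3* had ratios of 2.54, 4.22 and 5.22, *Xcr1* of 1.18, 1.59 and 3.21 and *Clec9a* of 0.973, 2.16 and 2.58 in KO1134, KO1308 and WT. *Clec9a* was thus even across the compartments of KO1134, with an interval of 0.8003 to 1.18. *Siglech* showed ratios of 1.03 (0.761 to 1.38), 1.55 (0.963 to 2.48) and 2.46 (1.63 to 3.67), and only the WT interval lay above 1. *Itgax* stood at 2.80 (2.45 to 3.19), 2.42 (1.98 to 2.95) and 4.17 (3.37 to 5.17).

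Of the 8 members, 7 were higher in the medulla in all 3 sections, against 31.6% of 15019 genes with at least 100 UMIs, and 5 were at least 2-fold higher in all 3, against 4.85%. All 8 had a lower ratio of medulla to cortex in both KO sections than in WT, a direction shared by 45.6% of genes. The interval of this ratio over that of WT held 1 for *Ccl17* in KO1134 (0.346 to 1.26). In KO1308 it held 1 for *Clec9a* (0.569 to 1.24), *Batf3* (0.555 to 1.18) and *Siglech* (0.349 to 1.13). The 7 medulla genes were at 717 CPM in medulla and 139 in cortex of KO1134, 1028 and 340 in KO1308 and 475 and 101 in WT. Their part in these ratios was not tested. Relative to WT, the ratio of the cDC1 sum was 0.397 in KO1134 (0.337 to 0.468) and 0.690 in KO1308 (0.562 to 0.848), and that of the activated sum 0.644 (0.536 to 0.773) and 0.516 (0.426 to 0.625). The larger difference from WT was in cDC1 genes in KO1134 and in activated genes in KO1308. Across sections, the edgeR test of this difference in contrast called 0.342% of 14017 genes and 0 of the 8 members. Of the members, 4 had an unadjusted p under 0.05, beside 762 of the 14017 genes. They were *Xcr1* (log2 difference -1.21, adjusted p = 0.170), *Ccl22* (-1.07, adjusted p = 0.277), *Fscn1* and *Itgax*.

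**Figure D2:**
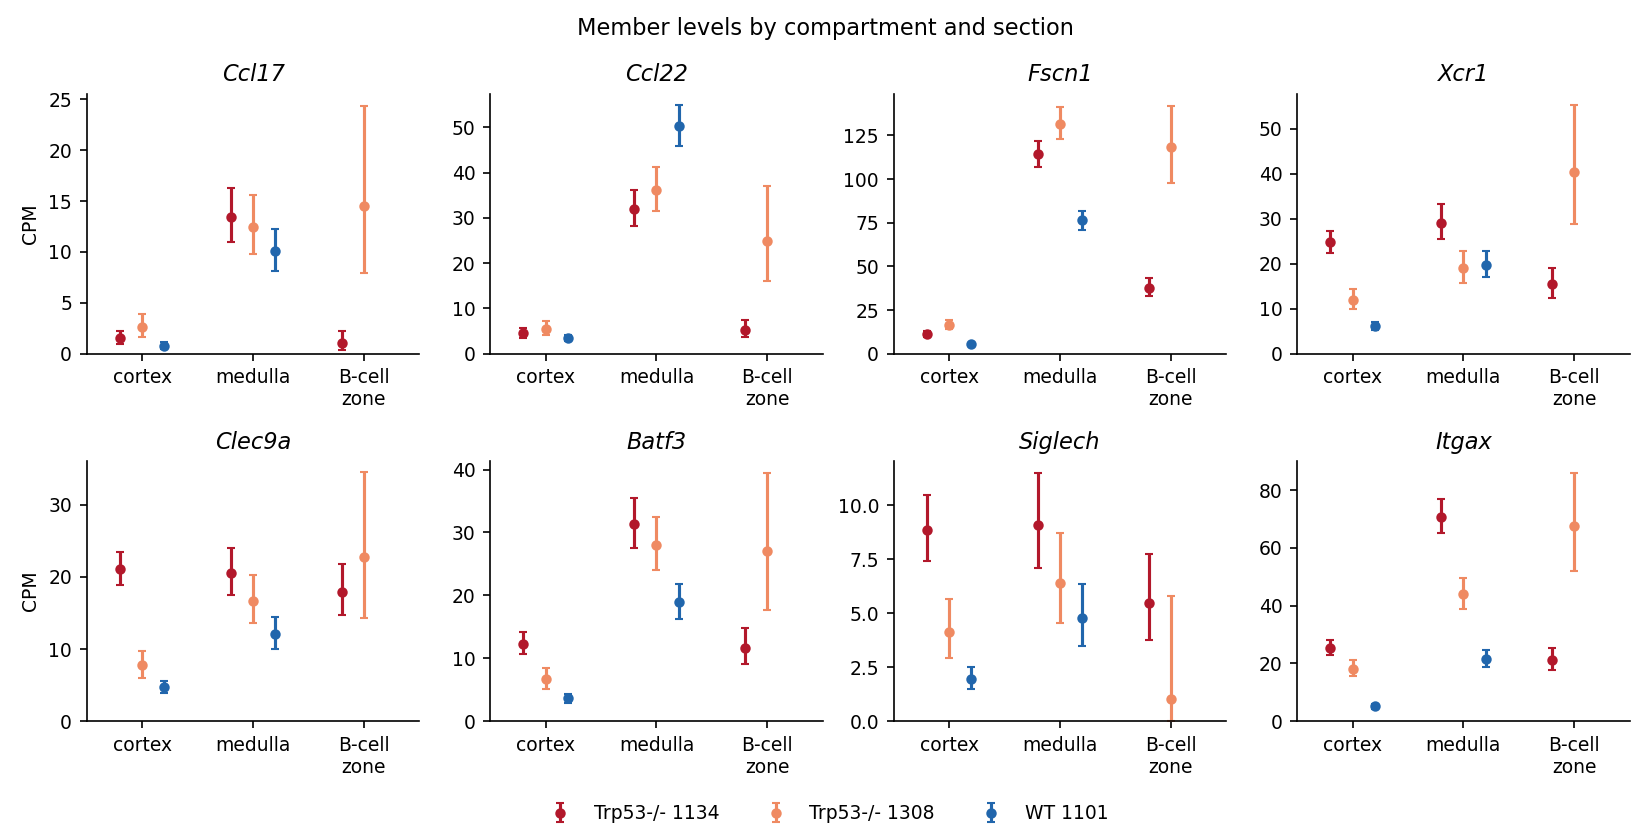
Levels in CPM (vertical axes, from 0) of the 8 members in cortex, medulla and B-cell zone, 1 point a section with its exact 95% Poisson interval. Ccl22 in the medulla is highest in WT, at 50.2 CPM, whereas the other members are highest in a KO section, and every cortical level is lowest in WT.

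In the cortex the WT section had the lowest level of each of the 8 members, and the KO excess was largest for *Itgax*, *Siglech* and the cDC1 genes in KO1134. Across genes, 36.9% of 13839 with at least 100 UMIs in the cortex of a section were above WT in both, 31.7% were below in both and 6.03% were at least 2-fold above in both. *Ccl17*, with at most 24 cortical UMIs, was the member under that minimum. Both intervals lay above 1 for 7 members, but the intervals cover counting error alone and this count was not taken over all genes. At least 2-fold higher in both sections were 4 members: *Ccl17*, *Fscn1*, *Siglech* and *Itgax*. The median ratio of the members was 3.71 in KO1134 and 2.03 in KO1308, beside 0.973 and 1.08 over all those genes.

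*Itgax* was at 25.3 CPM in the cortex of KO1134, 18.2 in KO1308 and 5.16 in WT, which is 4.91-fold (4.06 to 5.96) and 3.52-fold (2.81 to 4.41) the WT level. Both KO levels lay far above that of WT, and KO1134 was the higher, and the edgeR test gave a log2 fold of 2.06 with an adjusted p = 0.759. *Xcr1* was at 24.7, 11.96 and 6.16 CPM, 4.01-fold (3.36 to 4.81) and 1.94-fold (1.52 to 2.47). *Clec9a* was at 21.1, 7.72 and 4.69 CPM, 4.50-fold (3.68 to 5.52) and 1.65-fold (1.22 to 2.21). *Batf3* was at 12.3, 6.63 and 3.62 CPM, 3.40-fold (2.67 to 4.35) and 1.83-fold (1.32 to 2.53). The 3 cDC1 genes kept 1 order of sections, with intervals of the KO sections that did not overlap.

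*Siglech*, the plasmacytoid gene, was at 8.85 CPM in the cortex of KO1134, 4.13 in KO1308 and 1.94 in WT, 4.56-fold (3.33 to 6.31) and 2.13-fold (1.38 to 3.26). It rested on 136, 38 and 58 UMIs, so its KO1308 level is the less exact. For the activated genes it was KO1308 that was highest. *Fscn1* was at 11.4, 16.4 and 5.46 CPM, 2.09-fold (1.68 to 2.60) and 3.01-fold (2.40 to 3.78), and *Ccl17* at 1.497, 2.61 and 0.737 CPM on 22 to 24 UMIs, 2.03-fold (1.08 to 3.82) and 3.54-fold (1.90 to 6.63). *Ccl22* was at 4.56, 5.55 and 3.42 CPM, and its ratio in KO1134, 1.33 (0.970 to 1.83), did not clear 1, while that in KO1308, 1.62 (1.14 to 2.29), did.

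Other values moved with these cortical levels. In the cortex of KO1134, KO1308 and WT the 8 macrophage genes summed to 1103, 656 and 485 CPM, the 4 B cell genes to 57.9, 60.5 and 32.5, and the 7 medulla genes to 139, 340 and 101. The 5 adipocyte genes, such as *Adipoq*, stood at 357, 436 and 90.9 CPM there, and all 5 were at least 2-fold above WT in both KO sections, with median ratios of 20.9 and 31.7. Per UMI of the medulla genes, the cortical cDC1 sum was 2.91-fold WT in KO1134 (2.59 to 3.27) but 0.538-fold in KO1308 (0.458 to 0.631), the activated sum 1.31-fold and 0.756-fold, *Siglech* 3.30-fold and 0.629-fold and *Itgax* 3.55-fold and 1.04-fold. On that scale these 4 were close to or below the WT level in KO1308 and above it in KO1134. When the bins of each cortex were weighted to the WT distribution of medulla gene levels in the surrounding 7 × 7 bins, a comparison chosen after seeing the data, the cDC1 sum stayed at 3.90-fold WT in KO1134 but came to 1.37-fold in KO1308, with *Xcr1* at 0.837-fold there. *Itgax* was then at 4.28-fold and 2.44-fold, *Siglech* at 4.29-fold and 1.90-fold, and *Fscn1* at 1.78-fold and 3.12-fold. *Ccl22* was at 1.06-fold and 0.567-fold and *Ccl17* at 1.85-fold and 0.926-fold, but the KO1308 values rest on few UMIs. Below 200 CPM of medulla genes, which carry most of the WT weight, the cortex of KO1308 held 1 and 2 UMIs of *Ccl22* and 0 and 2 of *Ccl17* in the groups split at 100 CPM. The same groups held 1 and 13 UMIs of *Xcr1*, 2 and 4 of *Siglech* and 5 and 21 of *Itgax*. They held 9 and 20 of *Fscn1* and 9 and 29 of the cDC1 sum, so all weighted KO1308 values are inexact. The lower group, with 51.9% of the weight, had 404 bins in KO1308. Cortex bins from 400 CPM upward, which lay in the KO sections alone, were left out. The bins used below 100, from 100 to 200 and from 200 to 400 CPM were 404, 1256 and 3300 of the 7956 in KO1308. In KO1134 they were 2086, 2296 and 1282 of 5767, so the part left out was larger in KO1308. Per UMI of the 8 macrophage genes, *Itgax* was at 2.16-fold WT (1.79 to 2.62) and 2.60-fold (2.08 to 3.26) in the cortex and 2.11-fold and 1.999-fold in the medulla. The part of the adipocyte signal in the cortical levels was not tested.

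**Figure D3:**
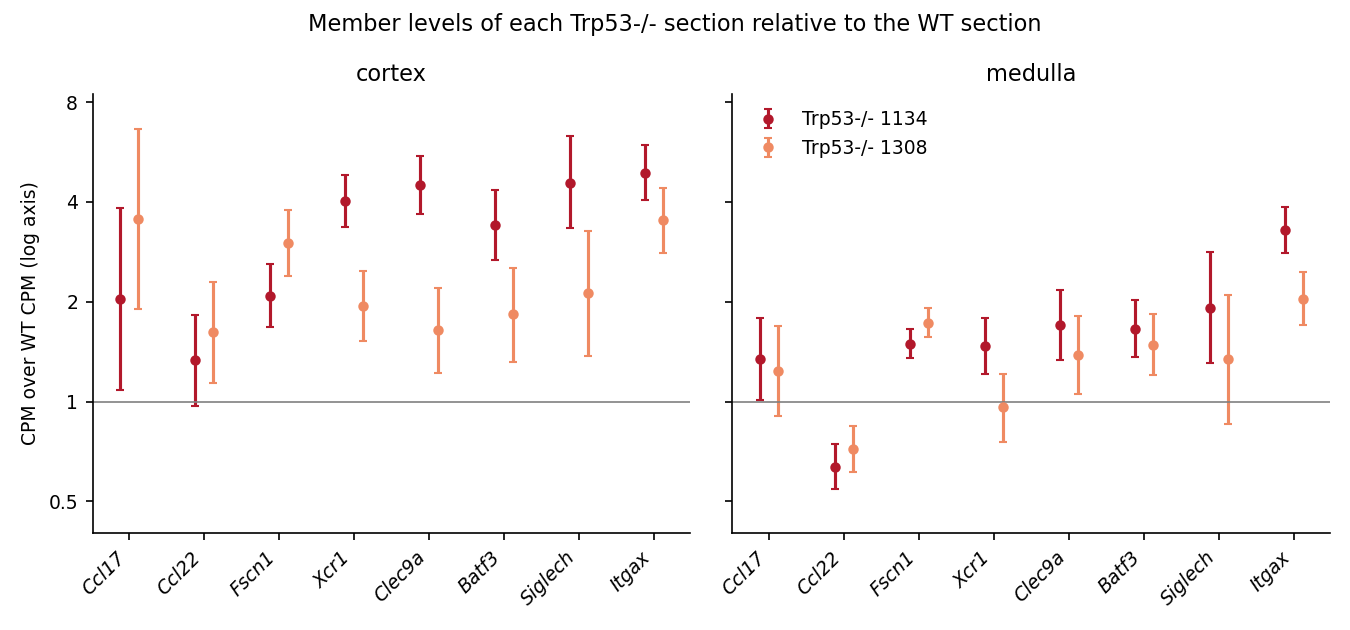
Ratio of each KO section to the WT section (vertical axis, log scale) for the 8 members in cortex and medulla, with exact 95% intervals and a line at 1. All cortical points lie above 1, and in the medulla both Ccl22 points, 0.636 and 0.721, lie below it.

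In the medulla the members parted. *Ccl22* was at 31.9 CPM in KO1134, 36.2 in KO1308 and 50.2 in WT, so both KO sections were lower, at 0.636-fold (0.544 to 0.742) and 0.721-fold (0.612 to 0.846), and their intervals overlapped each other but not that of WT. *Ccl17* was at 13.5, 12.4 and 10.05 CPM, or 1.34-fold (1.01 to 1.78) and 1.24-fold (0.907 to 1.69). *Fscn1*, the third activated gene, was at 114, 132 and 76.3 CPM, or 1.496-fold (1.36 to 1.65) and 1.73-fold (1.56 to 1.91). *Ccl22* was the only member below WT in both KO sections and 6 members were above it in both, against 40.8% and 32.6% of 11844 genes. *Siglech*, with at most 71 medullary UMIs, was under the minimum of 100. *Ccl22* was also the only member above WT in the cortex and below it in the medulla in both KO sections, as were 2.29% of 11658 genes, and the edgeR test of its difference between compartments is the one given with the contrasts.

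The cDC1 genes were modestly higher. *Batf3* was at 31.3, 28.0 and 18.9 CPM in the medulla of KO1134, KO1308 and WT, 1.66-fold (1.36 to 2.02) and 1.48-fold (1.199 to 1.84), and *Clec9a* at 20.5, 16.7 and 12.1 CPM, 1.70-fold (1.33 to 2.17) and 1.38-fold (1.05 to 1.82). *Xcr1* was at 29.1, 19.0 and 19.8 CPM, and only KO1134 was above WT, 1.47-fold (1.21 to 1.79) beside 0.960-fold (0.756 to 1.21). *Itgax* was at 70.8, 43.9 and 21.5 CPM, 3.29-fold (2.80 to 3.87) and 2.04-fold (1.70 to 2.45), and was the only member at least 2-fold above WT in both, as were 3.93% of genes. *Siglech* was at 9.11, 6.39 and 4.77 CPM, 1.91-fold (1.30 to 2.82) and 1.34-fold (0.853 to 2.09), of which the second does not clear 1.

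What was called medulla differed between sections, and the medullary ratios turn on it. The 7 medulla genes summed to 717 CPM in the medulla of KO1134, 1028 in KO1308 and 475 in WT. Per UMI of those genes, the activated sum was 0.775-fold WT in KO1134 and 0.611-fold in KO1308, the cDC1 sum 1.06-fold and 0.581-fold, *Itgax* 2.18-fold and 0.944-fold and *Ccl22* 0.422-fold and 0.333-fold. The weighting to the WT distribution of medulla gene levels took in only medulla bins from 400 CPM of those genes upward. These were 2717 of 3123 bins in KO1134, all 6728 in KO1308 and 4706 of 9182 in WT. In these bins *Fscn1* came to 0.763-fold and 0.732-fold and the cDC1 sum to 1.08-fold and 0.723-fold, so the excess of both was not kept there. *Ccl22* came to 0.324-fold and 0.318-fold, further from WT than over the whole medulla. The WT level of *Ccl22* was 94.3 CPM in this part and 50.2 CPM over the whole. The macrophage genes stood at 2122, 1386 and 1358 CPM and the B cell genes at 158, 198 and 86.1 in the medulla.

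**Figure D4:**
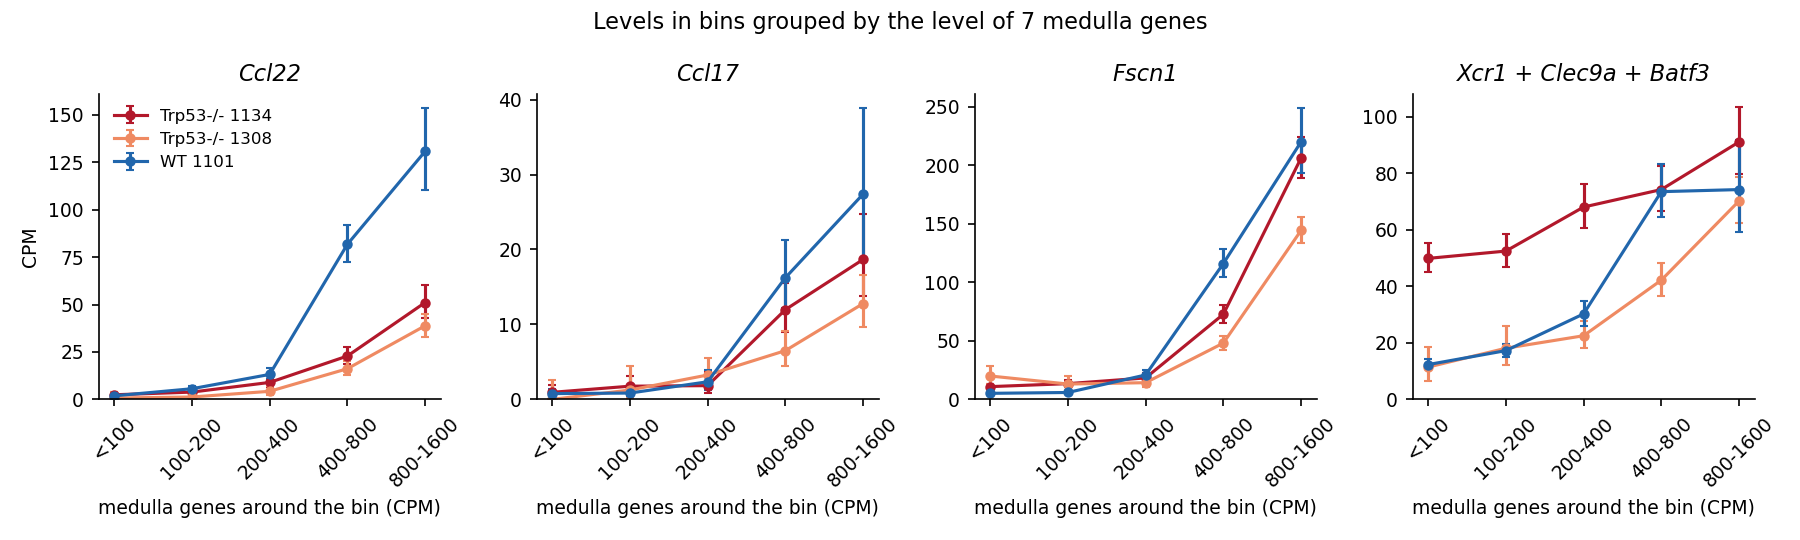
CPM (vertical axes) of Ccl22, Ccl17, Fscn1 and the cDC1 sum in bins outside the B-cell zone, grouped by the CPM of 7 medulla genes in the surrounding bins (horizontal axis), with exact 95% intervals. WT Ccl22 is above both KO sections in every group from 100 CPM upward, at 81.7 and 131 CPM in the highest groups, and KO1134 has the highest cDC1 level in the lowest groups, at 49.9 CPM below 100. The groups mix cortex, medulla and other tissue in shares that differ between sections.

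At matched levels of the medulla genes *Ccl22* was lower in both KO sections from 100 CPM of those genes upward. The intervals of KO1134 and WT overlapped below 400 CPM, and those of KO1308 and WT below 200 CPM. Between 400 and 800 CPM of medulla genes, *Ccl22* was at 22.8 CPM in KO1134 (18.7 to 27.7), 16.2 in KO1308 (12.8 to 20.1) and 81.7 in WT (72.2 to 92.1), and between 800 and 1600 at 51.04 (42.8 to 60.4), 38.8 (33.1 to 45.1) and 131 (111 to 154). The KO intervals did not reach those of WT in either group. *Fscn1* was at 72.7, 48.1 and 116 CPM in the first of these groups and 206, 144 and 219.9 in the second, so KO1134 came close to WT there. *Ccl17* was at 11.97, 6.50 and 16.2 CPM and then 18.7, 12.8 and 27.4. Below 100 CPM of medulla genes, the cDC1 sum was at 49.9 CPM in KO1134 (44.9 to 55.2), 11.4 in KO1308 on 16 UMIs (6.53 to 18.5) and 12.3 in WT (10.6 to 14.2). The intervals of KO1308 and WT overlapped, but this group held unlike tissue. Cortex made up 2086 of its 2808 bins in KO1134, 404 of 1047 in KO1308 and 8367 of 8395 in WT. The rest was other tissue, which in KO1308 had 12793 CPM of adipocyte genes. Whether a given level of medulla genes marks the same place in each thymus cannot be told apart from a change in the epithelium itself.

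**Figure D5:**
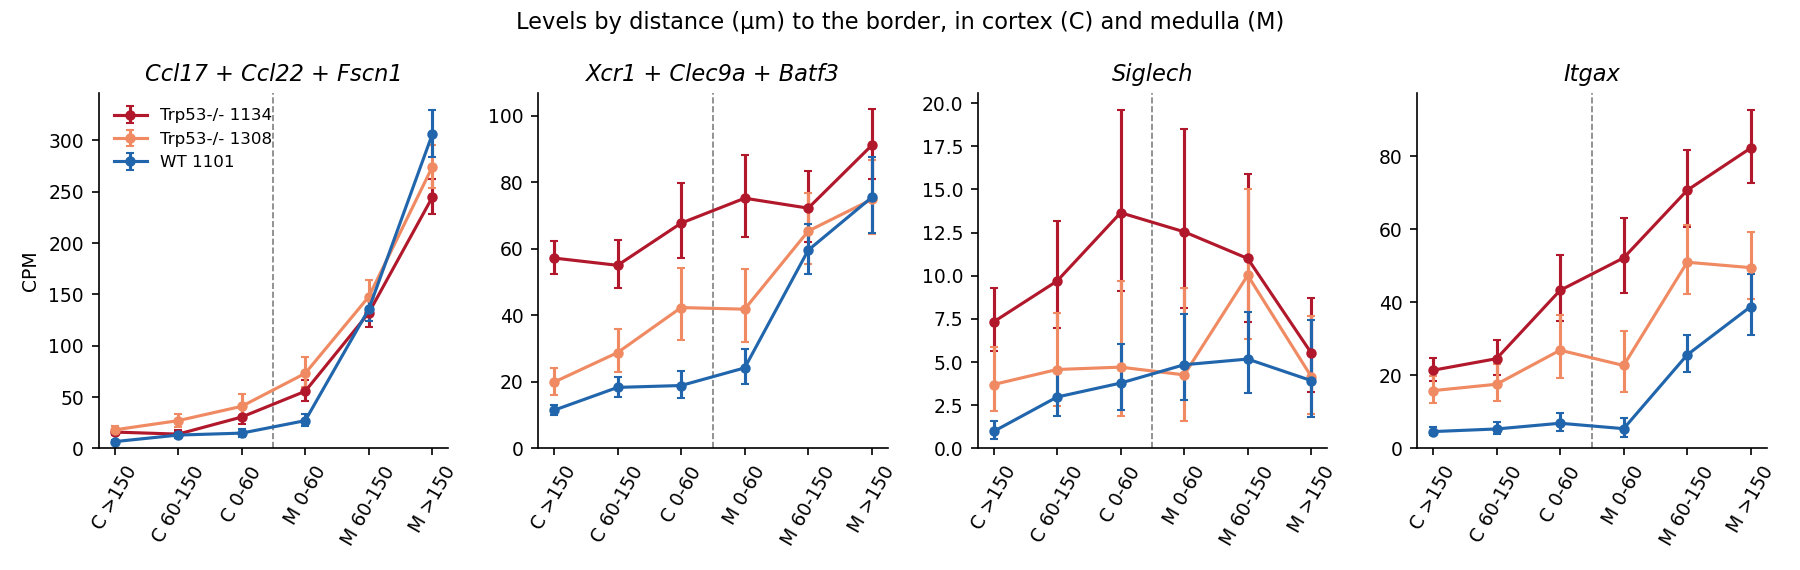
CPM (vertical axes, from 0) of the activated sum, the cDC1 sum, Siglech and Itgax by distance in µm to the border between cortex (C) and medulla (M), with exact 95% intervals. The activated sum climbs with depth into the medulla in every section, from 27.1 to 306 CPM in WT, and Siglech in KO1134 is highest within 60 µm of the border, at 13.6 and 12.5 CPM.

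Position within the compartments separated the subsets further. The activated sum was at 55.7, 132 and 245 CPM in the medulla of KO1134 within 60 µm of the cortex, from 60 to 150 µm and beyond, at 73.1, 148 and 274 in KO1308 and at 27.1, 136 and 306 in WT. Every section climbed with depth, and WT most steeply. *Ccl22* in the deepest medulla was at 46.0 CPM (39.0 to 54.0) in KO1134, 52.8 (44.1 to 62.9) in KO1308 and 107 (94.0 to 121) in WT. In the first 60 µm the order was the other way, at 18.1, 19.9 and 10.8 CPM, and there both KO intervals overlapped that of WT.

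The cDC1 sum showed little gradient in the cortex of KO1134, at 67.8 CPM within 60 µm of the medulla, 55.1 from 60 to 150 µm and 57.3 beyond. In KO1308 it fell off with distance, at 42.4, 28.8 and 19.9 CPM, and in WT it was at 18.9, 18.4 and 11.5. KO1134 thus had cDC1 RNA in the outer cortex at 57.3 CPM (52.4 to 62.4), where WT had 11.5 (9.95 to 13.2). *Siglech* was highest on either side of the border in KO1134, at 13.6 CPM in the cortex and 12.5 in the medulla within 60 µm, and lower in the deepest medulla, at 5.53. In WT it was at 0.982 CPM (0.572 to 1.57) in the outer cortex and at 3.79 to 5.18 CPM within 150 µm inside or 60 µm outside the border. *Itgax* climbed with depth in the medulla of WT, at 5.42, 25.6 and 38.9 CPM, and of KO1134, at 52.2, 70.7 and 82.3, and levelled off in KO1308, at 22.7, 50.998 and 49.5.

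Seen bin by bin, the members were sparse, and depth differed, with medians of 2489, 703 and 927 UMIs per medulla bin and 2738, 989.5 and 1627 per cortex bin in KO1134, KO1308 and WT. In the WT medulla, 4.18% of bins held *Ccl22*, 6.87% *Fscn1* and 0.948% *Ccl17*, and no bin held more than 15 UMIs of a member. After each bin was thinned to 500 UMIs, which left out 23 medulla bins of KO1134, 1785 of KO1308 and 1673 of WT, *Ccl22* was in 1.29% of the remaining bins of KO1134 (0.923 to 1.75), 1.78% of KO1308 (1.43 to 2.19) and 2.36% of WT (2.03 to 2.73). Without thinning the shares were 6.02%, 2.87% and 4.18%, so the order of KO1134 and WT turned with depth. For *Itgax* the thinned medullary shares were 3.06%, 2.003% and 1.08%. In the cortex, given for comparison, the thinned shares of *Ccl22* were 0.298%, 0.295% and 0.167%.

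The share of *Ccl17* bins that also held *Ccl22* was highest in WT. In the WT medulla 25 of 87 *Ccl17* bins also held *Ccl22*, 28.7%, beside 3.95% of bins without *Ccl17*. In KO1134 the shares were 9.64% of 83 bins and 5.92%, and in KO1308 6.15% of 65 bins and 2.84%. After thinning, WT had 17.1% of 35 bins beside 2.29%, and KO1134 and KO1308 had 0 of 19 and 1 of 26 bins, too few to compare. Bins of 1 section are not replicates, so no test was made. *Clec9a* was in 20 of 201 *Xcr1* bins in the medulla of KO1134, 3 of 110 in KO1308 and 8 of 179 in WT. These shares, 9.95%, 2.73% and 4.47%, lay above those of bins without *Xcr1*, 4.24%, 1.33% and 1.10%. After thinning, 1, 0 and 1 bins held both genes, too few to compare.

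In the B-cell zone of the KO sections the activated genes depended on the area. The largest area of KO1134, 1711 bins with 25.7 CPM of medulla genes and 1022 CPM of B cell genes, held *Ccl22* at 1.84 CPM (0.880 to 3.38) and *Ccl17* at 0.551 CPM on 3 UMIs (0.114 to 1.61), but *Clec9a* at 18.5 (15.1 to 22.5), *Xcr1* at 14.9 (11.8 to 18.5) and *Itgax* at 18.9 (15.4 to 22.9). *Fscn1*, the third activated gene, was not low in that area. It stood at 30.8 CPM (26.4 to 35.9), above its level in the cortex of that section, 11.4 CPM. *Clec9a* was close to its level in the cortex of that section, 21.1 CPM, while *Xcr1* and *Ccl22* were below theirs, 24.7 and 4.56 CPM. The 154 other bins, with 844 CPM of medulla genes, held *Ccl22* at 53.7 CPM (33.2 to 82.1) and *Fscn1* at 136 (102 to 177). In KO1308 the largest area, 345 bins with 543 CPM of medulla genes, held *Ccl22* at 26.4 CPM (16.7 to 39.6), *Itgax* at 69.9 (53.5 to 89.8) and *Xcr1* at 36.7 (25.1 to 51.8). No *Siglech* UMI was found there among 872178, with an exact upper limit of 4.23 CPM.

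The wider lists of dendritic cell genes ran the same way in the cortex, with exceptions. Of 10 cDC1 genes with at least 100 cortical UMIs, 7 were above WT in both KO sections, beside 36.9% of all genes, among them *Irf8*, a factor of cDC1 and plasmacytoid cells, at 2.61-fold and 1.87-fold, *Tlr3* at 4.97-fold and 2.61-fold and *Naaa* at 4.98-fold and 2.72-fold, and *Ppt1* was below, at 0.992-fold and 0.847-fold. Of 11 plasmacytoid genes 7 were above in both, with *Irf7*, an interferon-regulated factor, at 7.38-fold and 2.90-fold, while *Ly6d* at 0.111-fold and 0.557-fold and *Ccr9* at 0.473-fold and 0.788-fold, which thymocytes also express, were below. Of 13 activated genes 8 were above in both and 0 below, with *Socs2* at 5.91-fold and 3.67-fold and *Cd40* at 2.53-fold and 3.93-fold. Of 4 genes of type 2 conventional cells 3 were above, and *Cd209a* was at 0.972-fold and 0.413-fold. Median ratios of the 3 lists named first were 2.95 and 1.70, 3.31 and 1.25, and 1.55 and 1.45, beside 0.973 and 1.08 over all genes.

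In the medulla 10 of 13 activated genes were above WT in both KO sections, beside 32.6% of all genes, and *Ccr7*, the receptor that draws activated cells and mature thymocytes to the medulla, was the 1 below, at 0.812-fold and 0.788-fold. *Relb*, which activated cells and medullary epithelium use, was at 1.93-fold and 2.09-fold, *Cd274* at 1.55-fold and 2.68-fold and *Apol7c* at 1.97-fold and 1.64-fold. Of 10 cDC1 genes 9 were above in both, with *Tlr3* at 3.52-fold and 3.57-fold and *Itgae* at 2.93-fold and 2.34-fold, and of 10 plasmacytoid genes 7 were above and 3 below. Of 5 genes of dendritic cells at large 4 were above in both, with *Flt3*, the receptor for their growth factor, at 1.504-fold and 1.54-fold. Per UMI of the 51 listed genes, *Ccl22* in the medulla was at 0.476-fold (0.407 to 0.556) and 0.564-fold (0.479 to 0.662) and *Itgax* at 2.47-fold (2.10 to 2.90) and 1.60-fold (1.33 to 1.92).

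Ligands and receptors of the members did not all move with them. *Ccr4*, the receptor for CCL17 and CCL22, was at 2.44 CPM in the medulla of KO1134, 3.44 in KO1308 and 4.97 in WT, 0.490-fold (0.273 to 0.848) and 0.692-fold (0.394 to 1.18), on 19 to 49 UMIs. *Xcl1*, the ligand of XCR1, was at 16.4, 8.84 and 3.86 CPM, 4.26-fold (2.94 to 6.29) and 2.29-fold (1.49 to 3.57). *Flt3l*, the growth factor of dendritic cells, was at 48.9, 20.8 and 9.48 CPM in the cortex, 5.16-fold (4.49 to 5.93) and 2.19-fold (1.81 to 2.64), the same order of sections as the cDC1 genes. *Itgb2*, which codes for the partner chain of CD11c, was below WT in the cortex, at 0.727-fold and 0.653-fold, and in the medulla, at 0.704-fold and 0.621-fold, where *Itgax* was above.

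The genes whose pattern was most like each member were read over tiles of 216 µm, 206 in KO1134, 256 in KO1308 and 476 in WT, among 12993 genes, as the mean Pearson correlation of log2(CPM + 50) over the 3 sections. For *Ccl17* the nearest gene was *Ccl22* (mean r = 0.454), and *S100a4*, *Wfdc18*, *Gm13304* and *Fcgbp* followed at 0.438 to 0.432. For *Ccl22* they were *Gm13305* (0.658), *Fscn1*, *Fcgbp*, *Krt14* and *Gm13304* (0.606), and for *Fscn1* *Gm13304* (0.746), *Krt14*, *Ccl5*, *Gm13307* and *Gm21541* (0.728). The Gm genes are predicted genes that may share reads with near-identical copies, so their counts are uncertain, and *Krt14* was used to place the medulla. *Itgax* and the cDC1 sum shared *H2-Ab1*, *Cd74*, *H2-Eb1* and *H2-Aa*, genes of antigen presentation by MHC class II, at 0.536 to 0.581, with *Ctss* added for *Itgax* and *Mpeg1* for the cDC1 sum. No gene was close to *Siglech*, whose highest mean r was 0.185, with *Ubd*. Tiles of a section share a library and differ in depth and makeup, so these are descriptions.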

How the data were processed

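Thymus sections of 2 *Trp53*-/- and 1 *Trp53*+/+ mice were used, grouped by genotype in the labels. Reads were aligned and assigned to spots by the authors with STAR and BSTMatrix, and the deposited counts are whole-number UMI counts per gene and spot, not normalised, on GRCm38 (submitters' processing notes).

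Spots were summed in 27 µm bins, kept at 300 genes or more, at most 30% mitochondrial UMIs and in connected groups of at least 200 bins. Compartments came from windows of 7 × 7 bins: medulla where the share of medulla genes, relative to the section, was at least 1 and not below that of cortex genes, otherwise cortex where the relative cortex share was at least 0.5, after bins of the B-cell zone were set apart. CPM is per UMIs of the bins. Intervals are exact Poisson (CPM), conditional binomial (ratios) and binomial (shares), and the ratio of ratios uses a normal approximation on the log scale. The members, lists and tests were chosen with earlier results of these data known. Named genes are the members, list genes with at least 30 UMIs in every section, and the 5 genes most like each pattern. Bins or genes were varied as given under the processing, and intervals, compartments and the edgeR test were tried on simulated data. The test across sections used edgeR 4.0.16 (TMM, genes with at least 100 UMIs in a section, section as a block for the contrast of compartments) and DESeq2 1.42.0 in R 4.3.3, on sums over rows of 1 symbol. Python 3.11.15, numpy 2.4.6, scipy 1.17.1, pandas 2.3.3 and matplotlib 3.10.9 were used.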

Additional observations from a re-analysis of the deposited data

Results flagged for a closer look

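*Ccl22* lay above WT in the cortex and below it in the medulla of both KO sections. Its level relative to WT was 1.33 in KO1134 and 1.62 in KO1308 in the cortex and 0.636 and 0.721 in the medulla. The cortical interval of KO1134, 0.970 to 1.83, held 1. At the WT distribution of medulla gene levels the cortical values were 1.06 and 0.567, the second on few UMIs, so that in KO1308 both compartments were then below WT. The edgeR test of the difference between the compartments gave an adjusted p = 0.277 (unadjusted 0.00378). *Batf3* was also found in spots outside the tissue bins, which no comparison used. There it stood at 24.8 CPM in KO1308 (19.9 to 30.6, 87 UMIs) and 8.95 CPM in WT (4.09 to 17.0, 9 UMIs), a ratio of 2.78, and at 8.55 CPM on 1 UMI in KO1134. These spots held 3504421 UMIs in KO1308 and 1006082 in WT.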

How the results depend on the processing

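In CPM, the cortical mean of the KO sections stayed above WT for the 8 members in the alternatives run, except *Ccl22* at the WT distribution of medulla gene levels, 0.811. Over these, the mean of the KO sections divided by WT ran in the cortex from 2.63 to 3.12 for the cDC1 sum, 1.79 to 2.33 for the activated sum, 3.36 to 4.43 for *Itgax* and 3.02 to 5.12 for *Siglech*, the last (5.12) with a 2-fold margin between medulla and cortex. Medullary *Ccl22* stayed below WT, at 0.321 to 0.779. Per UMI of the medulla genes, chosen after seeing the data, the cortical means came to 1.72 (cDC1), 1.04 (activated), 1.96 (*Siglech*), 2.30 (*Itgax*) and 0.723 (*Ccl22*), with KO1308 at 0.480 to 1.04 among them. The medullary excess of the other members did not hold, and that of *Itgax* held in the mean through KO1134 alone, with KO1308 at 0.944 per UMI of the medulla genes and 1.04 at the WT distribution. With a medulla of at least 400 CPM of medulla genes, per UMI of the medulla genes and at the WT distribution of their levels, in that order, the activated sum was at 0.691, 0.693 and 0.586, the cDC1 sum at 0.984, 0.820 and 0.900, *Fscn1* at 0.898, 0.895 and 0.748, *Clec9a* at 0.962, 0.884 and 0.918 and *Itgax* at 1.64, 1.56 and 1.54. *Batf3* was at 0.893 and 0.938 in the latter pair and *Siglech* at 0.943 per UMI of the medulla genes, and under the first only 3 members were above WT in both KO sections. These 3 comparisons, a stricter cortex and leaving out the outer rim of 4 bins were chosen after seeing the data. In the medulla, the comparison at the WT distribution also used only bins from 400 CPM of medulla genes upward. In the medulla the activated sum was at 1.503 with 20 µm bins, 1.42 at 500 genes per bin and 1.05 with the 2-fold margin, where the cDC1 sum was at 1.17, and the log2 of medulla over cortex was 4.24 for the activated sum and 2.16 for *Itgax*. Without one or the other KO section the cortical ratios ran from 1.82 to 4.02 (cDC1), 1.81 to 2.56 (activated), 2.13 to 4.56 (*Siglech*) and 3.52 to 4.91 (*Itgax*) and the medullary ones from 1.26 to 1.60, 1.17 to 1.32, 1.34 to 1.91 and 2.04 to 3.29. Per UMI of other dendritic cell genes, leaving out those that thymocytes or B cells share gave 0.774 for the activated and 0.874 for the cDC1 sum in the medulla and 1.70 for *Siglech*, 2.27 for *Itgax*, 1.48 for the cDC1 sum and 1.28 for the activated sum in the cortex, the last at 0.757 (0.638 to 0.897) in KO1134, and *Ccl22* was there at 0.556 and 1.15. The genes at least 2-fold above WT in both KO sections numbered 834 in the cortex, or 1510 with a minimum of 30 UMIs and 3968 with none, and 465, 964 and 3170 in the medulla. The edgeR test called 2 genes in the cortex (0 up, 2 down), 24 in the medulla (17 up, 7 down) and 48 for the contrast (7 up, 41 down), DESeq2 162 (150 up) and 129 (84 up) in cortex and medulla, a minimum of 30 UMIs gave 10 in the medulla and 11 for the contrast, and RLE size factors 1 for the contrast. None of these called a member. Leaving out a section leaves no residual degree of freedom for it. The cause of these shifts was not tested. No paired analysis was possible because the labels give KO and WT sections no shared pairing and there is 1 WT section.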
